A study of Homo sapiens with 6 samples.

Results

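The measurements concern 10 genes of mucin-type O-glycosylation in Hep3B cells: the initiating enzymes GALNT1, GALNT2, GALNT3, GALNT4, GALNT7, GALNT10, GALNT11 and GALNT12, the core 1 synthase C1GALT1 and its chaperone C1GALT1C1. They are a named list, picked out of the 23406 features of the count and FPKM tables by symbol after earlier results of the knockdown comparison were known. The difference between the groups was therefore part of how they were selected, and it is given below as a description. All 10 were in both tables, and 9 of the 10 passed the filter on low counts. GALNT12 did not.

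Hep3B (Hep-3B) is an epithelial cell line from a human hepatocellular carcinoma (HCC). The cells carried a lentiviral shRNA, either a control (shControl, labelled wild type) or one against NXN (shNXN), the gene for the redox protein nucleoredoxin. Both groups went through puromycin selection, and RNA was taken on days 7, 9 and 11, which gave 3 libraries per group and 1 library per group and day. Which NXN shRNA was used is not given in the labels, nothing says that the days were separate cultures, and p-values then measure only the spread between these libraries, which may be technical.

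The estimated counts summed to between 15349382 and 16332589 per library. NXN itself stood at 181, 138 and 143 CPM (counts normalised to library size) in shControl cells on days 7, 9 and 11 and at 42.7, 47.5 and 39.5 CPM in shNXN cells. The libraries of day 11 stood apart from those of days 7 and 9: the chi-square per feature between replicates was 20.1 to 30.8 within a pair of days 7 and 9 and 49.2 to 77.8 within a pair that held day 11, so each result is also given by day. All 8 hepatocyte and Hep-3B markers reached 1 FPKM in every library, and their summed FPKM ran from 6952 to 15691 in shControl and from 2981 to 7960 in shNXN cells. Of the leukocyte markers only CD68 and LYZ reached 1 FPKM in every library, with a summed level of the list of 130 to 169 FPKM in shControl and 174 to 291 FPKM in shNXN cells, while PTPRC had at most 3 counts and CD3E none. PDGFRB alone of the 6 fibroblast markers reached that level. Of the 5 endothelial markers 4 were found by symbol, PECAM1 being absent, and none of the 4 had more than 1 count. The part of these levels in the results was not tested.

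Mucin-type O-glycosylation begins in the Golgi, where a GALNT enzyme moves N-acetylgalactosamine from UDP-GalNAc onto a serine or threonine and so makes the Tn antigen. The family members overlap in their substrates, and some of them, such as GALNT7 and GALNT10, prefer peptides that already carry a GalNAc. C1GALT1 then adds galactose to make core 1, the T antigen, and cannot fold without its chaperone C1GALT1C1, also called COSMC, so that loss of either leaves Tn in place of longer glycans. Hepatocytes secrete and carry many O-glycosylated proteins, among them apolipoproteins and receptors of the LDL receptor family.

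The members differ widely in base composition, and the sequences are shown because that composition follows the differences between groups described below. Over the longest GENCODE 29 transcript, GC content was lowest in C1GALT1 (35.4%), GALNT1 (36.3%), GALNT7 (38.8%), GALNT4 (39.5%), C1GALT1C1 (40.6%) and GALNT3 (40.8%). It was higher in GALNT11 (45.9%), GALNT12 (49.3%), GALNT10 (52.0%) and GALNT2 (55.7%), against a median of 48.4% over the tested features with a value. The contrast also holds in the coding sequence, where 38.6% of the third codon positions of GALNT1 and 31.1% of those of C1GALT1 were G or C, but 66.9% of those of GALNT2 and 72.0% of those of GALNT10. Aligned stretches of 60 coding bases (20 codons) from 4 GALNT genes show the same contrast in related enzymes. The stretches were picked for high protein identity to GALNT1. They are given 5′ to 3′ on the coding strand with G and C in capitals, on GRCh38 with GENCODE 29.
GALNT1: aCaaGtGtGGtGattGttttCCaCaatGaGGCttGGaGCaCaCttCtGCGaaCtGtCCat
GALNT3: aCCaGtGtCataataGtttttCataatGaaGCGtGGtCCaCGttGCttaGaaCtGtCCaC
GALNT10: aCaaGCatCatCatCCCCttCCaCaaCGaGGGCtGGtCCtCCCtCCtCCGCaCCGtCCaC
GALNT2: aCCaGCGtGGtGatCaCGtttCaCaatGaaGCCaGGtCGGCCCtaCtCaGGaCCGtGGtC

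These stretches lie at chr18:35677628-35677687 on the plus strand (GALNT1, exon 3), chr2:165764954-165765013 on the minus strand (GALNT3, exon 3), chr5:154329609-154329668 on the plus strand (GALNT10, exon 4) and chr1:230236051-230236110 on the plus strand (GALNT2, exon 4). Of the 60 bases, 28 were G or C in GALNT1, 25 in GALNT3, 37 in GALNT10 and 35 in GALNT2. At the third codon positions the number was 9 of 20 in GALNT1 and in GALNT3, but 19 of 20 in GALNT10 and 16 of 20 in GALNT2. GALNT3 shared 43 of the 60 bases with GALNT1, GALNT10 shared 39 and GALNT2 shared 36. In the same order 19, 15 and 16 of the 20 residues were those of GALNT1, so some base differences go with different residues. Over the whole proteins the identity to GALNT1 was 46.8%, 44.7% and 45.9%.

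The core 1 pair was poor in G and C throughout. The stretch of C1GALT1 lies at chr7:7238353-7238412 (plus strand, exon 3) and that of C1GALT1C1 at chrX:120626852-120626911 (minus strand, exon 2). Each is shown in the same way, and each had 24 of 60 bases as G or C.
C1GALT1: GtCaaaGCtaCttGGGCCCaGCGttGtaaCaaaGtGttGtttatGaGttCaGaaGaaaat
C1GALT1C1: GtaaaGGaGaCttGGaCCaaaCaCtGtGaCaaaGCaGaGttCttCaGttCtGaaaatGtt

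The starts of the same pair of genes were rich in CpG. Their RefSeq promoters are shown on GRCh38.p14 with CpG in capitals. For C1GALT1 the run covers the 250 bases before the start, chr7:7182294-7182543 on the plus strand, with 21 CpG and 62.4% GC. For C1GALT1C1 it covers chrX:120630151-120630304 on the minus strand, the 154 bases that lie before the first annotated exon, with 19 CpG and 68.2% GC.
C1GALT1 promoter: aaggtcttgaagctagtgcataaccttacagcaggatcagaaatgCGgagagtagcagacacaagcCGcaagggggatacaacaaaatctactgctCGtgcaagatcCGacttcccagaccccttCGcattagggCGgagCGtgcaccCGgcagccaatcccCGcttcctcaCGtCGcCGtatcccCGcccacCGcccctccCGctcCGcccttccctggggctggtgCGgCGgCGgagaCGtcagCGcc
C1GALT1C1 promoter: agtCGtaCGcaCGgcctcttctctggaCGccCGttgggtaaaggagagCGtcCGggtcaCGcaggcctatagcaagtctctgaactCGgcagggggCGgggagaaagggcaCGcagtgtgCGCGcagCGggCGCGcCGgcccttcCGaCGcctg

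RefSeq promoters were found for 9 of the 10 genes, 11 in all, because GALNT1 has 3 listed starts, and GALNT4 was not matched. Over their 250 bases the GC content ran from 47.2% to 87.2%, beside a median of 58% over 35116 promoters. The E-box letters CAGGTG or, on the other strand, CACCTG, the only motif searched, were found in 2 of the 11, those of GALNT3 and GALNT12, and in 17.5% of all promoters of that length. A match of letters is a description and not a site.

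Levels between genes can be compared only per length, on the FPKM scale (fragments scaled to gene length and depth). In shControl cells GALNT1 was the highest, at 154, 158 and 120 FPKM on days 7, 9 and 11. C1GALT1 followed with 68.6, 56.7 and 66.8 FPKM and GALNT2 with 39.5, 37.2 and 41.6 FPKM. The 3 libraries of each of these genes lay apart from those of the next in the order. The place of C1GALT1 is uncertain, because its FPKM values imply a length of 1515 nucleotides in shControl cells. Its longest annotated transcript has 6235 nucleotides. C1GALT1C1, GALNT11, GALNT10, GALNT3 and GALNT7 came next, with medians between 12.4 and 17.8 FPKM, and each overlapped with its neighbour in the order. GALNT4 (6.92 to 9.57 FPKM) lay below all of them, and GALNT12 (0.16 to 0.18 FPKM) was near the limit of detection, with 6 to 7 counts in each shControl library.

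In shNXN cells the first 3 ranks by mean FPKM were the same, while C1GALT1C1 moved from rank 4 to rank 9 and GALNT3 from rank 7 to rank 8. The libraries of C1GALT1 (48.0 to 55.5 FPKM) and GALNT2 (42.7 to 51.3 FPKM) overlapped there, so ranks 2 and 3 were not separated. Those of GALNT4 (5.62 to 9.62 FPKM), GALNT3 (3.67 to 9.04 FPKM) and C1GALT1C1 (3.34 to 7.03 FPKM) overlapped as well. The rank of C1GALT1 there rests on an implied length of 628 nucleotides, shorter than its coding sequence of 1089 nucleotides. Shares were taken of the summed FPKM of the 8 listed and the 12 other GALNT genes of the family. GALNT1 made up 50.1% to 59.1% of it in shControl libraries and 36.5% to 47.2% in shNXN libraries. GALNT2 made up 13.9% to 17.4% in shControl and 20.4% to 28.8% in shNXN libraries. For both genes the ranges of the groups did not overlap. In bulk RNA, fewer cells that express a gene and less RNA per cell cannot be told apart.

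The comparison of shNXN with shControl cells asks which transcripts change when NXN is depleted. The genes were chosen with this contrast known, so the values are a description. GALNT1, which acts on a broad range of substrates, stood at 343, 345 and 352 CPM in shControl cells on days 7, 9 and 11 and at 128, 115 and 186 CPM in shNXN cells. All shNXN libraries lay below all shControl libraries, the day 11 library being the nearest, and the mean was 41.3% of that in shControl cells (log2 fold change -1.28, standard error 0.19).

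GALNT2, another enzyme of broad range, went the other way by a small amount. It stood at 164, 152 and 172 CPM in shControl and at 180, 205 and 183 CPM in shNXN cells, 0.22 higher on the log2 scale (standard error 0.12). The groups did not overlap, but the gap between the highest shControl and the lowest shNXN library was small beside the spread over days.

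GALNT3, known as the enzyme that protects FGF23 from cleavage, stood at 36.0, 28.4 and 42.6 CPM in shControl and at 12.8, 9.99 and 28.9 CPM in shNXN cells. The shNXN library of day 11 reached the shControl library of day 9, so the groups overlapped. Its log2 fold change was -1.05 with a standard error of 0.41, and -1.50 without day 11.

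Among the enzymes that act on peptides already carrying a GalNAc, GALNT7 stood at 39.9, 36.1 and 42.2 CPM in shControl and at 19.0, 17.7 and 25.7 CPM in shNXN cells, without overlap (log2 fold change -0.92, standard error 0.20). GALNT10 stood at 48.5, 48.1 and 63.1 CPM in shControl and at 47.3, 56.5 and 61.5 CPM in shNXN cells, with the groups mixed (0.05 on the log2 scale, standard error 0.18). GALNT4 stood at 41.0, 32.4 and 37.2 CPM in shControl and at 36.4, 28.6 and 24.1 CPM in shNXN cells. Its groups overlapped, and its log2 fold change was -0.31 (standard error 0.21).

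The GALNT4 value is uncertain. The gene has a single coding exon and lies at chr12:89519408-89524806 on the minus strand, inside POC1B and the read-through gene POC1B-GALNT4, and its counts carry decimals, as counts shared among overlapping genes do. The log2 fold change was -1.60 (standard error 0.26) for POC1B and -0.90 (standard error 0.32) for POC1B-GALNT4, both with non-overlapping groups, unlike that of GALNT4.

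GALNT11, known for linker sites in the LDL receptor family, stood at 36.1, 32.7 and 30.5 CPM in shControl and at 32.6, 29.4 and 32.0 CPM in shNXN cells. The groups overlapped, and the log2 fold change was -0.08 (standard error 0.16). GALNT12 had 6, 7 and 7 counts in shControl and 16, 10 and 10 counts in shNXN cells, too few to be tested, although the groups did not overlap.

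C1GALT1 and its chaperone had the lowest CPM relative to control of the 10 genes, an order that did not hold for C1GALT1 in FPKM. C1GALT1 stood at 93.4, 61.9 and 141 CPM in shControl cells and at 30.6, 26.8 and 40.9 CPM in shNXN cells. The shControl libraries spread widely, and all of them lay above all shNXN libraries (log2 fold change -1.59, standard error 0.32). C1GALT1C1 stood at 20.2, 24.4 and 26.7 CPM in shControl and at 5.17, 4.35 and 9.67 CPM in shNXN cells, a mean of 26.9% of control. Its groups lay far apart on every day, and the log2 fold change was -1.89 (standard error 0.33), or -2.23 without day 11.

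**Figure D1:**
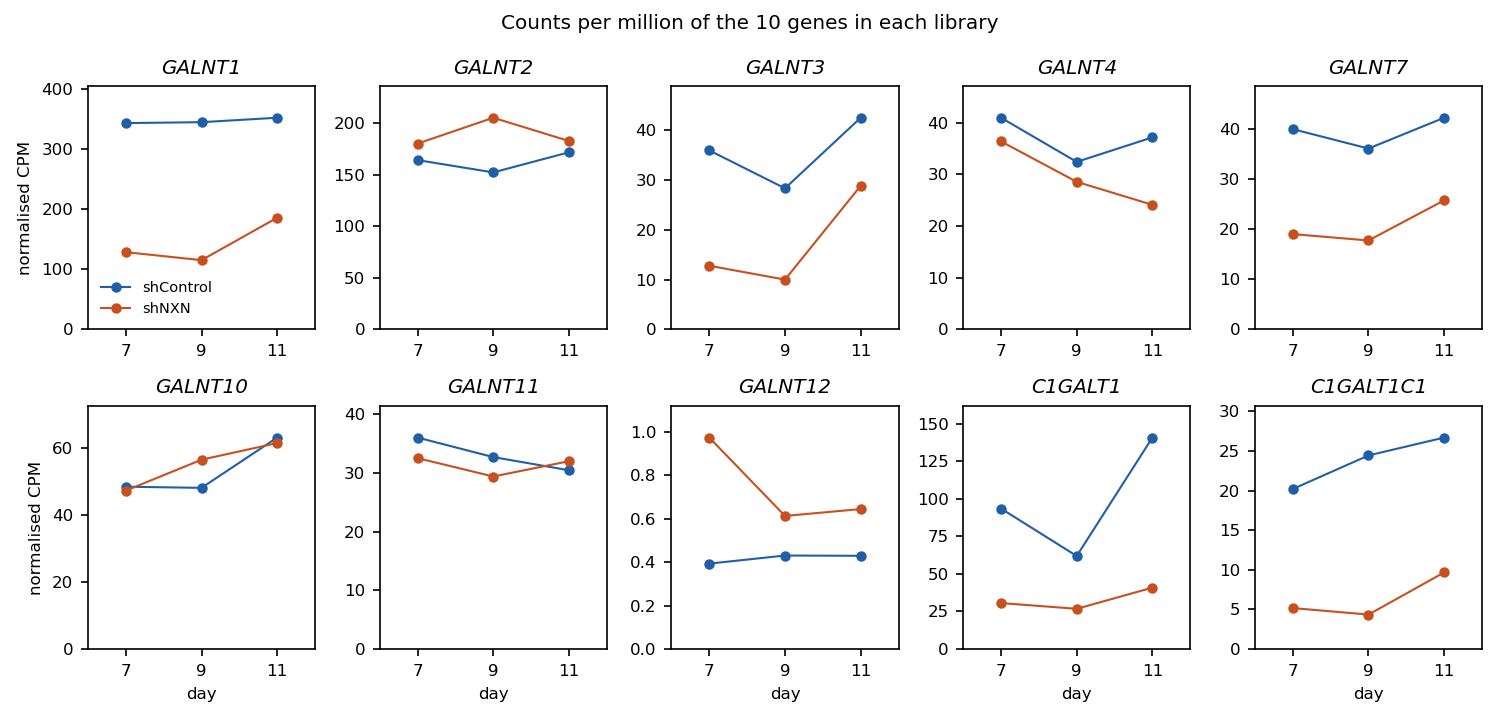
Normalised CPM (vertical axis, from 0, a separate scale per gene) of the 10 genes against day (horizontal axis), with 1 point per library, blue for shControl and orange for shNXN. GALNT1, GALNT7, C1GALT1 and C1GALT1C1 are lower in shNXN cells on each day, GALNT2 is slightly higher, and GALNT10 and GALNT11 cross.

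With edgeR's quasi-likelihood test, 3 of the 9 genes tested, GALNT1, C1GALT1 and C1GALT1C1, had an adjusted p under 0.05 and were lower, where 3.21% of all 14071 tested features were called lower and 0.185% higher. With the day as a replicate block, 5 of 9 were called lower, GALNT3 and GALNT7 being added, where 17% of all features were called lower and 6.28% higher. Every shNXN library lay below every shControl library for 4 of 9 genes, as for 21.5% of all tested features, and above for 1 of 9, as for 19% of them. The median log2 fold change of the 9 genes was -0.92, beside 0.03 over all tested features. Because the genes were selected on this contrast, nothing is read from these counts. The number of calls depended on single libraries, for the listed genes and for all features alike. It was 0 for both without the shControl library of day 7 or 11, or the shNXN library of day 7 or 9. Without the shControl library of day 9, 2 listed genes were called, and 248 of all features. Without the shNXN library of day 11, 5 listed genes were called, and 3706 of all features.

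Transcript GC content followed the differences across the whole table. Over 12740 tested features with a GC value, Spearman's rho between the log2 difference and the GC content came to 0.75, 0.68 and 0.73 on days 7, 9 and 11, a description across genes, which are not independent and share the libraries. The listed genes can be set beside features within 1 percentage point of their own GC content. GALNT1 had a log2 fold change of -1.28 and the 487 features of like GC content had a median of -1.28. GALNT7 had -0.92 beside a median of -1.05, C1GALT1 had -1.59 beside -1.36, and GALNT3 had -1.05 beside -0.76.

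The genes of higher GC content in the list lay near their bands as well. GALNT2 had 0.22 beside a median of 0.33, GALNT10 had 0.05 beside 0.23 and GALNT11 had -0.08 beside -0.16. Most distant from their bands were C1GALT1C1, at -1.89 beside -0.78, and GALNT4, at -0.31 beside -0.92. In bands of 2 percentage points, the quartiles were -1.11 and -0.39 near 41% GC, where C1GALT1C1 lies. They were -1.43 and -0.62 near 39% GC, where GALNT4 lies. Each of the other tested genes lay within the quartiles of its band. For C1GALT1C1 the gap was present on each day: -1.96 beside -0.85 on day 7, -2.49 beside -0.91 on day 9 and -1.46 beside -0.48 on day 11. For GALNT4 it was present on day 7 (-0.17 beside -1.0) and day 9 (-0.18 beside -1.06), and absent on day 11 (-0.62 beside -0.63).

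**Figure D2:**
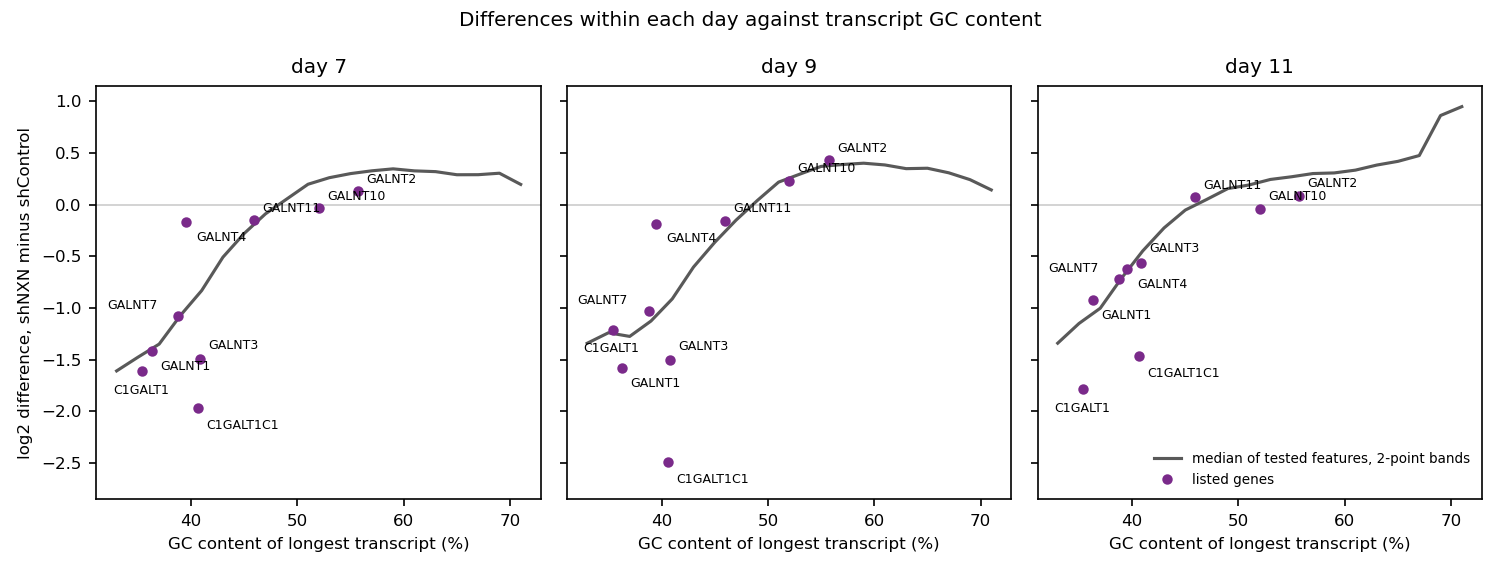
Log2 difference in normalised CPM between shNXN and shControl cells (vertical axis) against GC content of the longest transcript in percent (horizontal axis), 1 panel per day, with the 9 tested genes as points and the median of all tested features in bands of 2 percentage points as a line. GALNT1, GALNT7, GALNT10 and GALNT11 lie near the line on each day, while C1GALT1C1 lies below it on each day.

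When the GC trend of each library was entered as an offset, the log2 fold change was 0.03 for GALNT1 (standard error 0.17), 0.16 for GALNT7 (standard error 0.15), -0.09 for C1GALT1 (standard error 0.17) and -0.30 for GALNT3 (standard error 0.23). GALNT2 had -0.11, GALNT10 -0.19 and GALNT11 0.12 on the same scale. C1GALT1C1 kept -1.09 (standard error 0.20), and GALNT4 had 0.77 (standard error 0.30). None of the 9 genes was called by edgeR with the offset, where 0.0355% of all features were called. An unadjusted p under 0.05 in that fit was found for 2 of the 9, as for 2419 of all 14071 features tested. With the offset and the block together again 0 of 9 were called, where 0.995% of all features were called, and C1GALT1C1 had -1.09 (standard error 0.18). The offset removes any difference that follows GC content, whatever its origin, and a change in these genes that runs along with GC content cannot be told apart from the trend.

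The offset also depends on which transcript is taken. With the mean GC content over all annotated transcripts in place of the longest, GALNT1 had 43.3% GC and a log2 fold change of -0.55, and C1GALT1 had 42.8% GC and -0.77. C1GALT1C1 had 39.1% GC and -0.66 in that fit, and GALNT3 had -0.03. Thus among the genes that were low before the offset, C1GALT1C1 was negative by more than 0.5 under either choice, and GALNT1 and C1GALT1 under 1 of them.

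The count and FPKM tables disagreed for some of the genes. GALNT7 stood at 11.8, 13.1 and 12.4 FPKM in shControl and at 12.0, 12.6 and 12.9 FPKM in shNXN cells, so that its groups overlapped and its mean was 100% of control, against 52.8% in CPM. C1GALT1 stood at 68.6, 56.7 and 66.8 FPKM in shControl and 55.5, 48.0 and 52.5 FPKM in shNXN cells, still without overlap but at 81.3% of control, against 33.2% in CPM. GALNT1 was at 54.6% of control in FPKM, with 71.7, 65.1 and 98.8 FPKM in shNXN cells, against 41.3% in CPM. These 3 genes were closer to control in FPKM than in CPM.

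C1GALT1C1 and GALNT3 gave the same picture in both tables. C1GALT1C1 stood at 14.8, 17.8 and 20.3 FPKM in shControl and 4.01, 3.34 and 7.03 FPKM in shNXN cells, 27.2% of control. GALNT3 stood at 11.9, 12.9 and 14.2 FPKM in shControl and 3.67, 5.50 and 9.04 FPKM in shNXN cells, 46.7% of control, and here the groups did not overlap. GALNT2, at 44.9, 51.3 and 42.7 FPKM in shNXN cells, was above all its shControl libraries in both tables.

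Counts scaled to the library total alone, without the TMM factor that the CPM values above carry, were divided by FPKM, which gives the transcript length that the FPKM values imply for a gene in each library. For GALNT7 the implied length was 3162 ± 370 nucleotides in shControl and 1659 ± 249 in shNXN libraries (SD, n = 3). For C1GALT1 it was 1515 ± 526 in shControl and 628 ± 107 in shNXN libraries, beside a longest annotated transcript of 6235 nucleotides. For GALNT1 it was 2442 ± 431 and 1815 ± 21.7. In these 3 genes every shNXN library lay below every shControl library, as it did for 18.4% of 11519 features with at least 1 FPKM in every library. The other 6 tested genes overlapped, among them C1GALT1C1 (1344 ± 26.5 and 1325 ± 2.09) and GALNT2 (4115 ± 29.2 and 4111 ± 35.9). Whether different transcripts were present or the reads were divided differently among them was not tested.

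**Figure D3:**
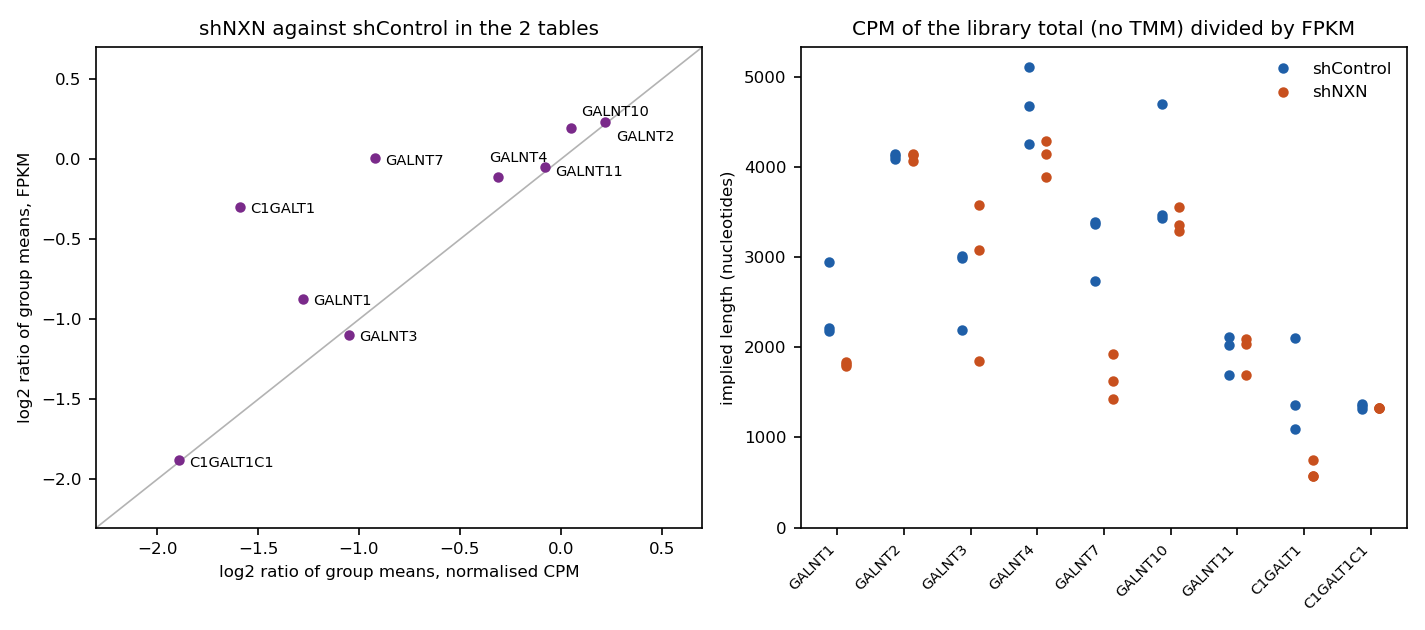
Left, the log2 ratio of shNXN to shControl group means in FPKM (vertical axis) against the same in normalised CPM (horizontal axis) for the 9 tested genes, with the line of equality. Right, the implied length in nucleotides (vertical axis, from 0) per gene, 1 point per library, blue for shControl and orange for shNXN. GALNT7, C1GALT1 and GALNT1 lie above the line and have shorter implied lengths in shNXN libraries, while C1GALT1C1 and GALNT2 lie on the line.

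The slope over days 7, 9 and 11, common to both groups, was not used to choose the genes. With edgeR, 0 of the 9 genes tested had a slope with an adjusted p under 0.05, where 0% of all features were called. Over all features the smallest adjusted p was 0.453, 1506 had an unadjusted p under 0.05, and DESeq2 called 82, none of them a listed gene. Of the 9 genes, 0 had an unadjusted p under 0.05. The slopes ran from -0.09 log2 units per day for GALNT4 (standard error 0.05) to 0.18 for GALNT3 (standard error 0.10) and 0.17 for C1GALT1C1 (standard error 0.08). Of these slopes 7 of 9 were above 0, as were 56.7% of those of all features. A day trend was therefore not detected with 3 days and 1 library per group and day.

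Across the 6 libraries the listed genes divided into those that followed GALNT1 and those that did not. The log2 CPM of GALNT1 had a Pearson r of 0.99 with that of GALNT7 and of C1GALT1C1, of 0.92 with those of GALNT3 and of C1GALT1, and of -0.85 with that of GALNT2. These are descriptions over 6 libraries that share the group difference. The genes outside the list whose profile was most like the mean of the 10 were DCUN1D4, HAUS6, ZBTB41, RABL3 and CGGBP1, with r between 0.998 and 0.999 among 9846 features at 10 CPM or more. All 5 had a GC content between 32.5% and 38.8%, and 18.8% of the 9846 features had an r of at least 0.9.

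Around these enzymes, 54 further genes of the O-glycan pathway were listed, from other GALNT enzymes to acceptor proteins, and 39 of them could be tested. With edgeR, 1 was called lower and 0 higher, where 3.21% and 0.185% of all features were. The gene was GCNT1, which adds the core 2 branch to core 1 and stood at 2.36, 2.40 and 1.96 CPM in shControl and 0.61, 0.18 and 0.58 CPM in shNXN cells. The fitted difference was -2.28 on the log2 scale (adjusted p = 0.0492 from edgeR, standard error 0.45), and -1.28 with the GC offset (adjusted p = 0.202 from edgeR). GCNT1 had only 10, 3 and 9 counts in shNXN cells. In FPKM its groups overlapped, at 1.71, 3.09 and 0.69 in shControl and 0.24, 0.09 and 1.07 in shNXN cells. On day 11 it was higher in shNXN cells by FPKM. With the block 4 were called lower and 4 higher, where 17% and 6.28% of all features were, and with the GC offset none was, with the block or without it. The median log2 fold change of the 39 genes was 0.13, and -0.00 with the offset.

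Of the 12 other GALNT genes 3 could be tested and 5 had no counts in any library. GALNT13 stood at 29.9, 28.2 and 25.3 CPM in shControl and at 10.1, 8.70 and 21.7 CPM in shNXN cells (log2 fold change -1.04, standard error 0.35, adjusted p = 0.103 from edgeR). GALNT16 (0.94, standard error 0.45) and GALNT6 (2.04, standard error 0.53) stood below 3 CPM in every library, and neither was called with or without the block. With the GC offset GALNT13 had -0.17, GALNT16 0.63 and GALNT6 1.77. GALNT6 was the third of the 3 tested and falls outside the rule for naming genes, having been named after its values were seen.

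Beyond core 1, the core 2 enzyme GCNT4 was called with the block (log2 fold change -3.17, adjusted p = 0.0288 from edgeR). It went from 7.54, 4.31 and 7.18 CPM in shControl to 0.24, 0.31 and 2.06 CPM in shNXN cells, with only 4, 5 and 32 counts there. Without the block GCNT4 had -2.87 (adjusted p = 0.0693 from edgeR), and with the block and the GC offset together -1.81. GCNT3, which makes core 2 and core 4 branches, had -0.33 and was not called. Of 7 tested sialyltransferases none was called without the block and 2 were higher with it. ST3GAL2, which caps the galactose of core 1, stood at 86.5, 91.7 and 105 CPM in shControl and at 126, 131 and 125 CPM in shNXN cells (log2 fold change with the block 0.44, adjusted p = 0.046 from edgeR). ST3GAL1, with the same activity, stood at 2.82 to 3.31 CPM and 5.27 to 8.28 CPM in the groups (1.12, adjusted p = 0.0346 from edgeR with the block). For both the groups did not overlap, and ST3GAL4 (0.59 without the block) was not called. With the block and the GC offset together ST3GAL2 had 0.12 and ST3GAL1 0.88.

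None of the 5 tested extension enzymes was called, and B4GALT1 and B4GALT5, galactosyltransferases with the highest mean FPKM of them over the 6 libraries, had log2 fold changes of 0.23 and 0.26. Of the 9 genes for nucleotide sugars 1 was called with the block. This was SLC35A1, the Golgi transporter for CMP-sialic acid, at 19.6, 22.8 and 20.2 CPM in shControl and 1.76, 2.88 and 9.54 CPM in shNXN cells (log2 fold change with the block -2.45, adjusted p = 0.0318 from edgeR). With the block and the GC offset together SLC35A1 had -1.32. SLC35A2, the UDP-galactose transporter, had 0.34 and was not called.

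Of 12 tested acceptor proteins, 2 were called higher with the block. PODXL, a sialomucin, and LRP1, a large receptor of the LDL receptor family, had 0.57 (adjusted p = 0.0491 from edgeR) and 0.44 (adjusted p = 0.0493 from edgeR) with the block. The groups of PODXL did not overlap in CPM. Those of LRP1 did, at 320, 408 and 173 CPM in shControl and 491, 473 and 245 CPM in shNXN cells. Without the block LRP1 had 0.42 (standard error 0.37, adjusted p = 0.43 from edgeR). With the GC offset PODXL had 0.35 and LRP1 0.06. APOE and AHSG, the most abundant acceptors at 1523 and 332 FPKM in shControl cells, had log2 fold changes of 0.29 and 0.44 and were not called. Here too base composition ran along with direction: GCNT1, GCNT4 and SLC35A1, lower with the block, had 36.0% to 39.0% GC, and the 4 genes called higher had 51.4% to 60.1%.

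**Figure D4:**
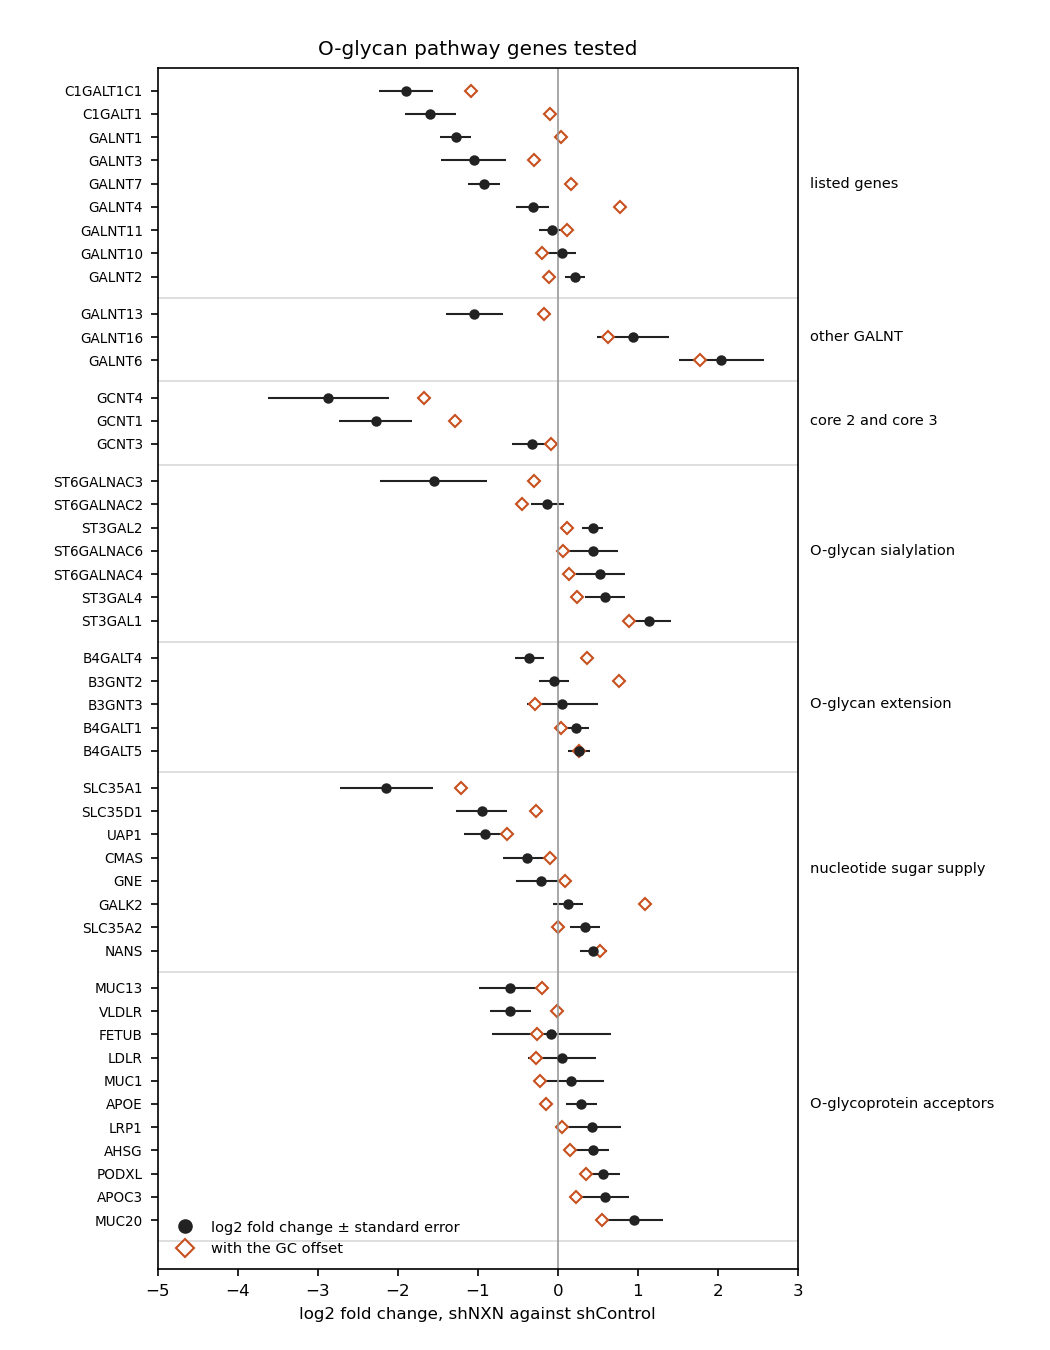
Log2 fold change of shNXN against shControl (horizontal axis) for the 9 tested genes of the list and the tested genes of the wider pathway that are reported here (rows, grouped), as points with the standard error as bars, and the value with the GC offset as open diamonds. The offset moves GALNT1, GALNT7 and C1GALT1 to near 0, and leaves C1GALT1C1 at -1.09.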

How the data were processed

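The authors deposited an estimated count per feature and library, with 2 decimals, and a second table of FPKM values for the same features. The aligner, counting program and annotation are not given in the sources used here. The submitters' processing notes name the mouse builds GRCm38 and mm10, while the Ensembl identifiers in the files are human. Of the 20314 Ensembl identifiers 19433 had a symbol, and there were 0 columns without a sample. Between 15.1% and 18.8% of the counts in a library were not whole, and counts shared among overlapping genes and paralogs are uncertain.

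Counts were rounded and fitted with edgeR 4.0.16 in R 4.3.3 (TMM, filterByExpr, quasi-likelihood test, Benjamini-Hochberg over all 14071 features tested). The standard error is the log2 fold change over the square root of F. CPM values are TMM-normalised. The GC offset was a natural spline with 5 degrees of freedom per library on the GC content of the longest GENCODE 29 transcript, known for 90.5% of tested features. The members and lists were chosen with earlier results of these data known. The genes named were the 10 listed, pathway genes called with or without the block, the 2 most abundant per list, NXN and the 5 most similar profiles. Of the pathway genes, 2 that this rule names are not reported here. The days pair the libraries by their labels. Same-day deviations from the group means had correlations of 0.34 to 0.48, and those of different days -0.40 to 0.16.

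Alternatives were DESeq2 1.42.0, RLE factors, library size only, other filters (none, or at least 10 counts in every library), the block, GC content averaged over transcripts, limma 3.58.1 on log2(FPKM + 1) and log2(FPKM + 0.1), and each library or day 11 left out. Tested on simulated data for the group comparison over 13956 features, the fit recovered 92.9% of 197 changed features and made 2 false calls. When straight-line GC trends were simulated over 13982 features, false calls numbered 3523 without the offset and 9 with it, and with the block 4528 and 9. The trend in the data was curved, with median log2 fold changes of -1.26 near 37% GC, 0.33 near 55% and 0.37 near 67%. The simulated noise was also set to the same level for all features. These recovery rates and false calls therefore describe the simulations and do not carry over to the data. Python 3.11.15, pandas 2.3.3, scipy 1.17.1, Biopython 1.88 and matplotlib 3.10.9 were used.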

Additional observations from a re-analysis of the deposited data

Results flagged for a closer look

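The direction of the difference between shNXN and shControl cells varied by day for GALNT10 and GALNT11. GALNT10 had log2 differences of -0.035 on day 7, 0.23 on day 9 and -0.038 on day 11. GALNT11 had -0.15 on days 7 and 9 and 0.071 on day 11. With 1 library per group and day the difference between days was not tested.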

How the results depend on the processing

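The number of features called, 477, was 826 with RLE factors, 929 with library size only, 3311 with DESeq2, 818 without a filter, 5 and 4 with the GC offset from the longest and from the mean of the transcripts, 3272 with the replicate block, 287 and 66 with limma on FPKM with a pseudocount of 1 or 0.1, 140 with block and offset, 4519 without day 11 and 0 to 3706 with 1 library left out. The 3 listed genes called became 5 with DESeq2, with the replicate block and without day 11, 0 with the GC offset in either form or with block and offset, 1 and 0 with limma at the larger and smaller pseudocount, and 0 to 5 with 1 library left out. For the other pathway genes the 1 call became 11 with DESeq2, 0 with at least 10 counts in every library, 0 with the GC offset in either form or with block and offset, 8 with the replicate block, 2 with limma at the larger pseudocount, 14 without day 11 and 0 to 11 with 1 library left out. For the slope over days, 0 features became 82 with DESeq2.

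Of 321 refitted fold changes 21 changed sign, and of 135 slopes 9. With the GC offset from the longest transcript, from the mean over transcripts and with the block, GALNT2 had -0.11, -0.081 and -0.11, GALNT4 0.77, 1.06 and 0.69, GALNT7 0.16, 0.28 and 0.16, GALNT10 -0.19, -0.24 and -0.19, and GALNT11 0.12, 0.10 and 0.12. GALNT1 had 0.035 with the offset and 0.051 with block and offset. GALNT7 had 0.0053 and 0.0057 with limma at the larger and smaller pseudocount. With 1 library left out GALNT10 ran from -0.036 (without the shNXN library of day 11) to 0.25, and GALNT11 from -0.10 to 0.016 (without the shControl library of day 7). Among slopes, GALNT1 had -0.050 and -0.011 and GALNT7 -0.039 and -0.050 with the offset in its 2 forms, and C1GALT1 had -0.015 with limma at either pseudocount. With 1 library left out the slope of GALNT1 ran from -0.0069 (without the shNXN library of day 11) to 0.099, and that of GALNT2 from -0.025 (without the shControl library of day 11) to 0.033, below 0 also without the shNXN library of day 7. The cause of these changes was not tested.

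At this depth GALNT12, with 6 to 16 counts per library, did not pass the filter and was not tested.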
